A study of Mus musculus with 14 samples.

Results

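The 33 genes described here are type I interferon response genes, the antiviral genes that a cell switches on when interferon reaches its surface. They were taken by name from a fixed list. All 33 were found among the 21444 mouse genes with read counts, and all 33 were among the 14019 genes left by a filter on low counts. The study grew macrophages from the femur and tibia marrow of C57BL/6 mice with 20% L929 medium, a source of the macrophage growth factor CSF1. The sample protocols give 6 days of culture and the series design text gives 7 days. Both genotypes carried the ELAVL1f/f allele, a floxed copy of the gene for the RNA-binding protein ELAVL1 (HuR). The wild type libraries had that allele and no Cre, and the knockout libraries had it together with LysM-Cre, a recombinase expressed from the lysozyme gene Lyz2 of myeloid cells. The labels name no interferon, infection or other stimulus. Messenger RNA was read in 4 libraries per genotype, numbered 1 to 4 in each (WT 1 to 4 and KO 1 to 4). Binding of AGO2, the protein that carries miRNAs to their targets, was read by PAR-CLIP in 1 library per genotype. The design text calls the mRNA libraries biological repeats, but nothing ties a number to an animal or a day, and the p-values here reflect no more than how far these libraries differ among themselves.

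Type I interferons bind the receptor chains IFNAR1 and IFNAR2, and the kinases JAK1 and TYK2 then phosphorylate STAT proteins, STAT2 among them. STAT2 acts with IRF9 in the ISGF3 complex, which binds the interferon-stimulated response element in the promoters of its target genes. Many of the targets are sensors or transcription factors of the same pathway, and macrophages keep a low level of it running through small amounts of interferon beta. ELAVL1 binds U-rich and AU-rich elements, many of them in 3′ UTRs, where miRNAs also bind.

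Library totals ran from 8160789 counts in KO 1 to 25030262 in KO 4. Elavl1 itself did not fall with the knockout label, with 61.2 to 65.9 counts-per-million (CPM) in wild type and 64.1 to 76.8 in knockout. The counts cover the whole gene and do not show whether the floxed part was lost, so genotypes are those of the labels. Lyz2 had 9949 to 15451 CPM in wild type and 3723 to 6142 in knockout, and its groups did not overlap. Libraries 1 and 2 of both genotypes stood apart from libraries 3 and 4. The Y-linked gene Ddx3y had 24.3 to 38.1 CPM in numbers 1 and 2 and at most 0.0860 in numbers 3 and 4. Summed with the Y-linked genes Kdm5d, Uty and Eif2s3y it was 67.1 to 92.5 CPM in numbers 1 and 2. In numbers 3 and 4 that sum was at most 0.422, so the number sets differed in the sex of the cells. The macrophage genes Csf1r, Adgre1, Cd68 and Itgam each had at least 751.8 CPM in every library. They are part of a list of 12 macrophage genes, of which 6 had a log2 fold change of knockout over wild type above 0. Others of the list varied more. Marco had 779.8, 593.4, 177.1 and 136 CPM in WT 1 to 4 and 688.9, 653.4, 66.71 and 69.63 in KO 1 to 4. Msr1 had at most 46.77 CPM in numbers 1 and 2 and at least 111.7 in numbers 3 and 4. These are bulk samples, in which fewer cells of a type and less RNA per cell cannot be told apart.

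Most of the interferon response genes were present at moderate levels in these unstimulated cells. Levels between genes are compared on the deposited RPKM scale, which divides reads by gene length and library size. The mean over 8 libraries lay above the median gene tested (5.43 RPKM) for 28 of the 33. Bst2, whose product tetherin holds budding viruses at the cell surface, was the highest. It had 731, 893, 314 and 358 RPKM in WT 1 to 4 and 806, 848, 427 and 400 RPKM in KO 1 to 4. Numbers 1 and 2 were high and numbers 3 and 4 low in both genotypes, while the genotypes overlapped. Ifi27l2a, a small interferon-induced membrane protein gene, followed at a mean of 177 RPKM (106 to 238). Rtp4, a chaperone-like gene that restrains some RNA viruses, had 121 RPKM (105 to 141). Oas3, a synthetase of the 2-5A messenger that activates RNase L, had 89.0 RPKM (50.5 to 140). Oasl2, an OAS-like gene, had 73.9 RPKM (41.4 to 129). At the low end stood Xaf1, a gene linked to cell death, at 3.28 RPKM (2.13 to 4.15). The GTPase genes Mx2 and Gbp3 were both at 1.98 RPKM, over ranges of 1.21 to 2.55 and 1.25 to 2.52. In this order the library ranges of neighbouring genes overlapped in 31 of 32 cases, the exception being Bst2 above Ifi27l2a.

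**Figure D1:**
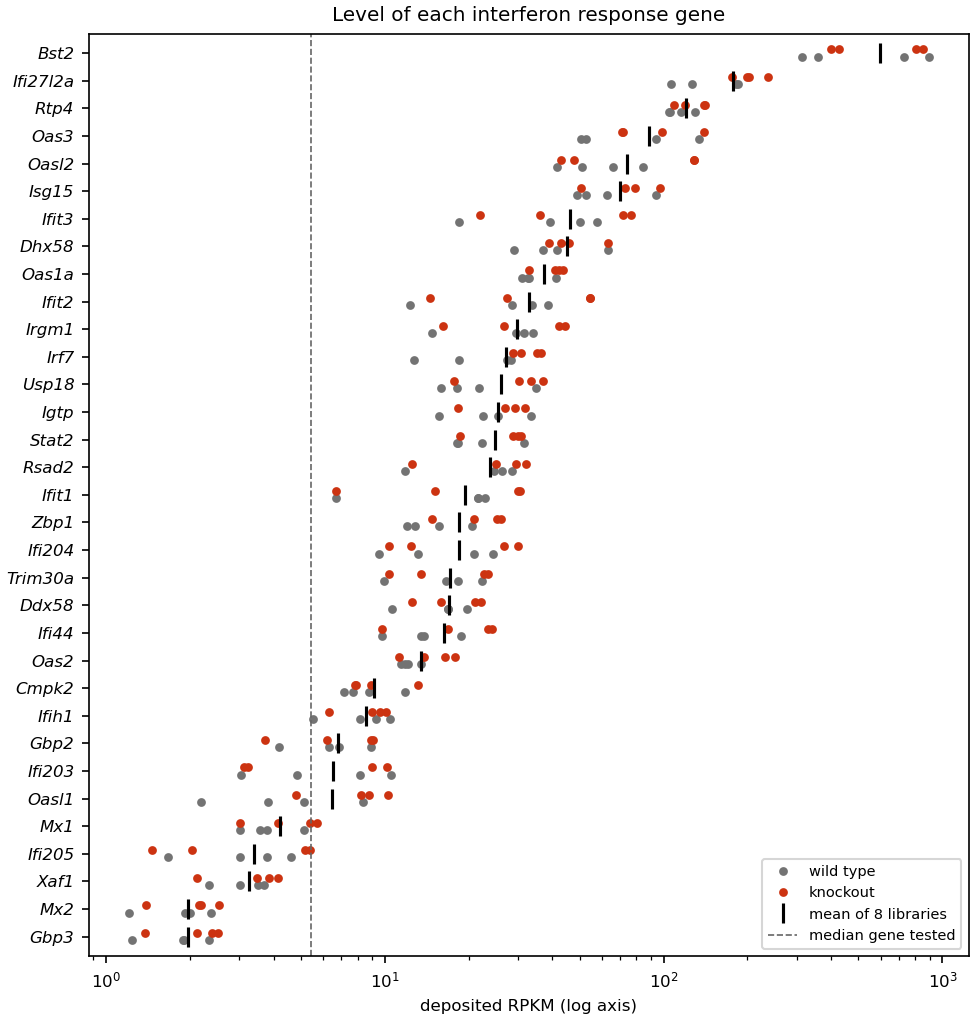
Deposited RPKM of each of the 33 genes (horizontal, log axis) in the 4 wild type (grey) and 4 knockout (red) libraries, ordered by the mean of 8 libraries (black bars). The dashed line is the median gene tested, 5.43 RPKM, and 28 genes have their mean to its right.

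The central comparison asks whether these genes differed between knockout and wild type. In edgeR's quasi-likelihood test 32 of the 33 had a fold change above 1 in the libraries labelled knockout, where 49.6% of all genes tested did. Their median log2 fold change was 0.21, against -0.002 over all genes tested. Ifi203 was the single one below, at -0.06 (SE 0.48). None of the 33 passed an adjusted p under 0.05 (background 0%), and none had an unadjusted p under 0.05 (background 0.578%). The differences thus did not exceed the spread of the 4 libraries of each genotype, a spread that includes the gap between numbers 1 and 2 and numbers 3 and 4. With the library number as a block, so that knockout and wild type were contrasted within each number, the median was 0.20. In that fit 13 of the 33 had an unadjusted p under 0.05, all higher in knockout, beside 4.90% of all genes higher at that level. None passed after adjustment over all genes (background 0.0357% in either direction), the smallest blocked edgeR adjusted p being 0.195, for Ifi27l2a. DESeq2 with the same block called Ifi27l2a alone among the 33 (adjusted p = 0.0174), where it called 0.308% of genes higher, and without the block it called none of the 33.

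The genes did not move alike in the 4 number pairs. The median log2 ratio of knockout to wild type CPM was -0.04 in number 1, 0.06 in number 2, 0.49 in number 3 and 0.36 in number 4. Of the 33 genes, 15 were higher in knockout in number 1 and 22 in number 2, where 49.7% and 52.4% of all genes were. In number 3 it was 31 of 33 and in number 4 all 33, where 50.3% and 50.1% of all genes were. KO 3 and KO 4 both exceeded WT 3 and WT 4 for 31 of the genes (background 20.8%), the exceptions being Ifih1 and Ifi203. In both pairs 3 and 4 knockout was the higher for 31 genes (background 26.6%), and in both pairs 1 and 2 for 9 genes (background 24.7%). KO 1 and KO 2 both exceeded WT 1 and WT 2 for 3 of them (background 8.39%).

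**Figure D2:**
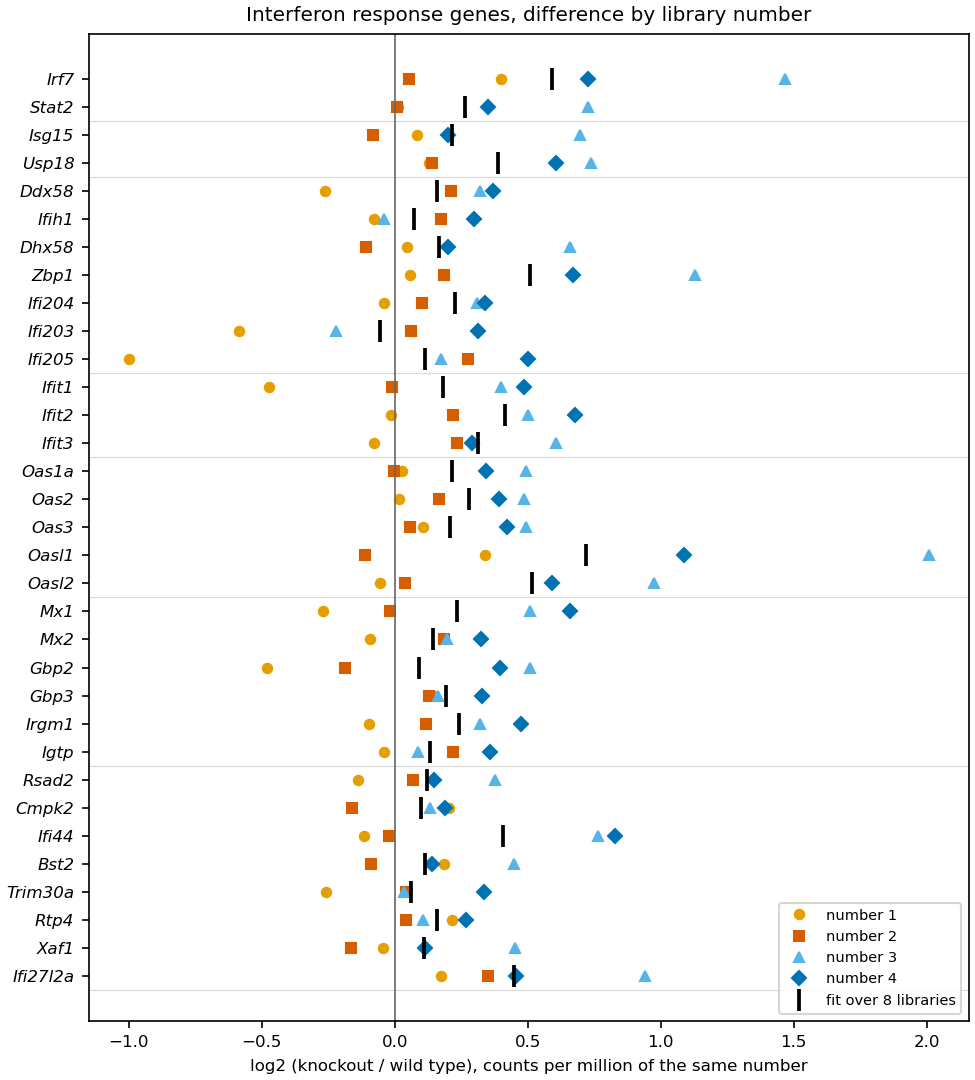
Log2 ratio of knockout to wild type CPM (horizontal) for each of the 33 genes in each library number (coloured symbols), grouped by role, with the edgeR log2 fold change over 8 libraries as a black bar. Numbers 3 and 4 (blue) lie to the right of 0 for 31 of the genes, whereas numbers 1 and 2 (orange) lie on both sides.

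Knockout was higher in all 4 pairs for 9 genes, beside 9.52% of all genes tested, and lower in all 4 for none, beside 8.26%. These 9 were Irf7, Zbp1, Ifi27l2a, Usp18, Oas2, Stat2, Oas3, Gbp3 and Rtp4. In numbers 1 and 2 their log2 ratios were small, between 0.01 and 0.40.

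The transcription factors come first. Irf7 (ENSMUSG00000025498) is the interferon-induced factor that drives the interferon alpha genes in a second wave. It had 191, 190, 84.6 and 122 CPM in WT 1 to 4 and 253, 197, 234 and 202 CPM in KO 1 to 4. Every knockout library lay above every wild type library, which held for Irf7 alone among the 33 (background 0.350%), and WT 3 and WT 4 were the lowest. No gene of the 33 had every knockout library below every wild type library (background 0.435%). The genotype difference was 0.59 on the log2 scale (SE 0.26) at an edgeR adjusted p of 0.9999, and with the block it was 0.66 (SE 0.17) at an edgeR adjusted p of 0.241. Stat2 (ENSMUSG00000040033), a STAT protein of ISGF3, had 318, 190, 181 and 222 CPM in WT 1 to 4. In KO 1 to 4 it had 321, 192, 300 and 283 CPM, so numbers 1 and 2 were nearly level between genotypes and numbers 3 and 4 were not. Its log2 fold change was 0.27 (SE 0.24).

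Isg15 encodes a ubiquitin-like modifier and Usp18 the protease that removes it and also restrains the interferon receptor. Isg15 had 73.3, 42.3, 37.5 and 47.9 CPM in WT 1 to 4 and 77.7, 40.0, 60.8 and 55.05 CPM in KO 1 to 4. The genotypes overlapped, and the log2 fold change was 0.22 (SE 0.26). Usp18 had 71.0, 33.3, 36.5 and 43.6 CPM in wild type and 77.6, 36.7, 60.9 and 66.4 CPM in knockout. Both number 1 libraries were high, and the log2 fold change was 0.39 (SE 0.30), or 0.41 (SE 0.11, edgeR adjusted p = 0.274) with the block.

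Of the 7 sensor genes, 6 had a log2 fold change above 0, and their median was 0.16. Zbp1, a sensor of left-handed nucleic acids that triggers necroptosis, had 62.5, 40.1, 35.8 and 46.8 CPM in WT 1 to 4. In KO 1 to 4 it had 65.0, 45.6, 78.4 and 74.5 CPM, and KO 3 and KO 4 stood above all other libraries. The difference was 0.51 on the log2 scale (SE 0.23). The RNA helicase sensors Ddx58 (RIG-I) and Ifih1 (MDA5) and their relative Dhx58 had log2 fold changes of 0.16, 0.07 and 0.17. The AIM2-like genes Ifi204, Ifi203 and Ifi205 had 0.23, -0.06 and 0.11. These neighbouring genes are close copies of one another, and how reads that fit several of them were counted is not stated.

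The IFIT proteins bind viral RNA that lacks host cap marks. All 3 IFIT genes were at or below wild type in number 1 and above it in numbers 3 and 4. Ifit1 had 64.3, 20.4, 67.1 and 63.4 CPM in WT 1 to 4 and 46.4, 20.3, 88.5 and 88.8 CPM in KO 1 to 4. Both number 2 libraries were low. Its log2 fold change was 0.18 (SE 0.50), and those of Ifit2 and Ifit3 were 0.41 and 0.31.

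All 5 oligoadenylate synthetase genes had log2 fold changes above 0, with a median of 0.28, and all 5 had an unadjusted p under 0.05 with the block in edgeR (background 4.90% higher). With the block in DESeq2 it was 4 of the 5, Oasl1 having an unadjusted p of 0.0686. Oas2 had 101, 111, 103 and 118 CPM in WT 1 to 4 and 103, 124, 145 and 154 CPM in KO 1 to 4. Its log2 fold change was 0.28 (SE 0.16). Oas3 had 727, 522, 270 and 281 CPM in wild type and 782, 543, 380 and 376 CPM in knockout. The log2 fold change was 0.21 (SE 0.37), and it was -0.06 without KO 1. Its spread between numbers was larger than that between genotypes. The largest log2 fold change of the 33 was that of Oasl1, an OAS-like repressor of Irf7 translation, at 0.72 (SE 0.39). Oasl1 had 10.4 CPM in WT 3 and 18.04 in WT 4, against 41.8 in KO 3 and 38.3 in KO 4. In numbers 1 and 2 it had 40.1 and 25.4 CPM in wild type and 50.8 and 23.5 in knockout. Oasl2 had 149.6, 124 and 189 CPM in WT 1 to 3 and 243 in WT 4, and 144, 127, 372 and 365 CPM in KO 1 to 4. The difference was 0.52 on the log2 scale (SE 0.39).

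All 6 GTPase genes had log2 fold changes above 0, between 0.09 and 0.24, with a median of 0.17. Mx1 and Mx2 encode dynamin-like GTPases, and C57BL/6 mice carry a defective Mx1 allele. Gbp2 and Gbp3 encode guanylate-binding proteins, and Irgm1 and Igtp immunity-related GTPases that act on pathogen vacuoles. Gbp3 had 21.5, 11.8, 17.2 and 17.1 CPM in WT 1 to 4 and 23.8, 12.8, 19.3 and 21.5 CPM in KO 1 to 4, a log2 fold change of 0.19 (SE 0.25). Knockout was higher in each pair by 0.13 to 0.33 on the log2 scale. Mx2 had 11.4, 5.98, 9.13 and 9.50 CPM in wild type and 10.7, 6.79, 10.5 and 11.9 CPM in knockout. Its log2 fold change was 0.14 (SE 0.26), and it was -0.01 without WT 2. Gbp2 was lower in knockout in numbers 1 and 2 (log2 ratios of -0.48 and -0.19) and higher in numbers 3 and 4 (0.51 and 0.39).

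Among the other effectors all 8 had log2 fold changes above 0, with a median of 0.12. Ifi27l2a had 92.3, 96.0, 53.0 and 63.1 CPM in WT 1 to 4 and 104, 122, 102 and 86.7 CPM in KO 1 to 4. WT 3 and WT 4 were the lowest, and the log2 fold change was 0.45 (SE 0.22), or 0.48 (SE 0.11) with the block. Rtp4 had 129, 131, 156 and 139 CPM in wild type and 149, 135, 168 and 167 CPM in knockout, and the log2 fold change was 0.16 (SE 0.14). It varied least of the 33 genes, by 1.30 times from the lowest to the highest library. Bst2 had 634, 797, 269 and 306 CPM in wild type and 721, 748, 367 and 338 CPM in knockout. The log2 fold change was 0.12 (SE 0.42), and its sign turned on leaving out KO 1 (-0.05), KO 2 (-0.08), WT 3 (-0.09) or WT 4 (-0.06). Xaf1 had 17.8, 11.7, 14.5 and 16.7 CPM in wild type and 17.3, 10.4, 19.8 and 18.04 CPM in knockout. The genotypes overlapped, and the log2 fold change was 0.11 (SE 0.24). Rsad2 encodes viperin, which makes a chain-terminating nucleotide, and the neighbouring gene Cmpk2 encodes a nucleotide kinase. Their log2 fold changes were 0.12 and 0.10.

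**Figure D3:**
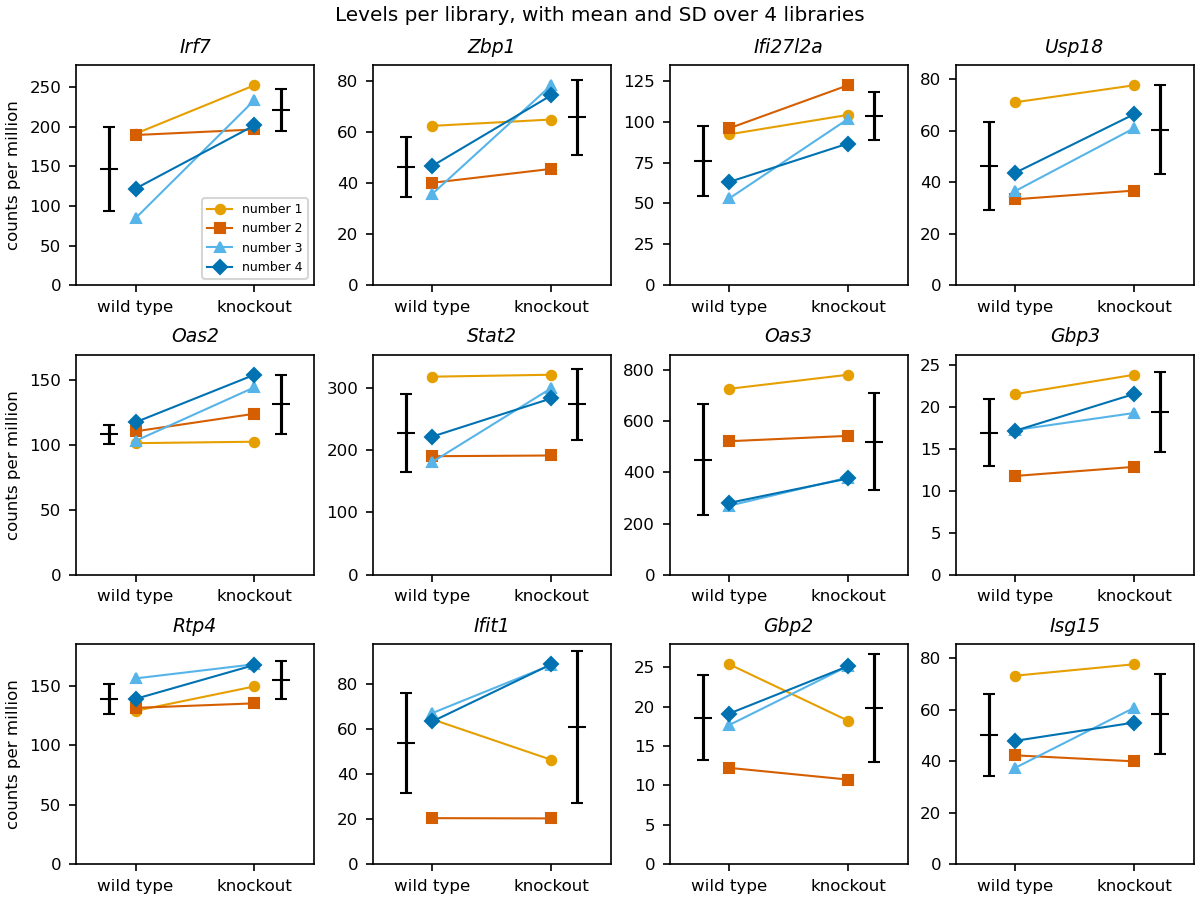
CPM (vertical, from 0) in wild type and knockout libraries for the 9 genes that were higher in knockout in all 4 pairs and for Ifit1, Gbp2 and Isg15. Lines join libraries of the same number, and black bars are the mean ± SD over 4 libraries. Irf7 alone has all 4 knockout libraries above all wild type libraries.

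More of these genes differed between library numbers than between genotypes, which also held over all genes tested. Numbers 3 and 4 against numbers 1 and 2, with genotype in the fit, differed at an edgeR adjusted p under 0.05 for 13 of the 33, where 51.2% of all genes did. Higher in numbers 3 and 4 were 9 of them (background 25.6%), and lower were 4 (background 25.7%). The higher ones were the 3 IFIT genes, at 1.02 to 1.08 on the log2 scale, Ifi203 (1.37), Ifi205 (1.14), Ifi204 (1.11), Oasl2 (1.05), Irgm1 (0.74) and Trim30a (0.73). The lower ones were Bst2 (-1.19), Oas3 (-0.995), Ifi27l2a (-0.48) and Cmpk2 (-0.45). The interferon response genes therefore did not share 1 direction between the numbers.

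Tested within numbers 3 and 4 alone, all 33 genes had a log2 fold change above 0 (background 47.3%), with a median of 0.41. An unadjusted p under 0.05 was reached by 23 of them, all higher in knockout, where 4.67% of all genes were higher at that level. None passed the adjusted threshold (background 0.0975% in either direction), the smallest edgeR adjusted p being 0.0559, for Ifi44. Oasl1 had the largest difference there, a log2 fold change of 1.49 (SE 0.225, edgeR adjusted p = 0.0806). Irf7 had 1.07, Zbp1 0.88, Ifi44 0.79, Oasl2 0.76 and Usp18 0.66. Within numbers 1 and 2 alone 19 genes lay above 0 and 14 below (background 49.5% above), with a median of 0.01 and a range of -0.40 to 0.27. None of those had an unadjusted p under 0.05 (background 0.129%, and 0.0378% higher).

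The genotype difference itself was compared between the number sets by an interaction term. All 33 genes had a larger log2 fold change in numbers 3 and 4 than in numbers 1 and 2 (background 49.7%), by a median of 0.42. An unadjusted p under 0.05 was reached by 3 of them, Oasl2, Irf7 and Oasl1 (background 0.514%), and none passed the edgeR adjusted threshold. The count of 33 fell to 18 without WT 1 and to 26 without KO 2. The count thus rested more on WT 1 than on any other library. The labels give the numbers no meaning. The sets differed in Y-linked transcripts, and what part this or any other difference between them had in these values was not tested.

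Markers of other cells were set beside these values. The 10 genes listed for plasmacytoid dendritic cells, which make large amounts of interferon, had counts for 9 and were tested for 6, of which 4 had log2 fold changes above 0. Their summed level was 73.5 to 78.8 CPM in wild type and 77.8 to 85.0 in knockout, and most of it was Tcf4. The defining gene Siglech had at most 0.68 CPM in any library. Endothelial markers summed to 24.4 to 43.7 CPM in wild type and 31.0 to 67.9 in knockout, with all 6 tested above 0. Without Pecam1 the sums were 26.9 and 27.9 CPM in WT 3 and WT 4 and 46.9 and 42.3 in KO 3 and KO 4. Most of that was Kdr, with 22.48 and 22.5 CPM in WT 3 and WT 4 and 38.4 and 33.7 in KO 3 and KO 4. All 6 tested were above wild type in number 3 and 4 of the 6 in number 4. Stromal markers summed to 188 to 336 and 198 to 416 CPM, most of it Lox, with all 14 tested above 0. Without Lox the sums were 12.3, 9.24, 16.9 and 58.3 CPM in WT 1 to 4 and 7.39, 7.53, 82.3 and 100.6 in KO 1 to 4. In numbers 3 and 4 knockout was thus the higher, with 13 and 11 of the 14 genes above wild type, while in numbers 1 and 2 it was 2 and 4 of 14. The collagen gene Col1a1 had 0.979 CPM in WT 3 and 6.97 in WT 4, against 13.2 in KO 3 and 18.9 in KO 4. Monocyte markers summed to 67.7 to 99.1 and 73.9 to 101 CPM, most of it F13a1, which had a log2 fold change of -0.46, and the other 7 were above 0. Without F13a1 the sums were 8.92, 21.3, 27.7 and 28.6 CPM in WT 1 to 4 and 22.8, 29.97, 62.2 and 49.1 in KO 1 to 4, higher in knockout in each number. Plac8, a gene of inflammatory monocytes, had 2.42, 5.51, 1.802 and 3.82 CPM in WT 1 to 4 and 7.77, 8.32, 15.96 and 12.6 in KO 1 to 4. In numbers 3 and 4 the stromal, endothelial and monocyte sums were thus higher in knockout, as the interferon response genes were. In numbers 1 and 2 the lists parted. Stromal sums without Lox were lower in knockout there, and monocyte sums without F13a1 were higher. Endothelial sums without Pecam1 were lower (9.30 and 6.69 CPM against 10.1 and 7.75), and with Pecam1 higher (38.2 and 31.0 against 33.3 and 24.4). Markers of neutrophils and their precursors summed to 10.9 to 36.1 and 23.6 to 64.9 CPM, with 7 of 8 tested above 0. Their sum was higher in knockout in numbers 1 to 3, where 8, 7 and 7 of the 8 were above wild type. In number 4 it was lower, at 23.6 CPM against 28.3, with 1 of the 8 above. The part of these markers in the interferon values was not tested.

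Of the 21 interferon genes listed as ligands, 2 were matched in the count tables, Ifnb1 and Ifng, and both were at or near 0. The other 19, all the interferon alpha genes among them, have no value here. Ifnb1 was at most 0.0805 CPM and Ifng at most 0.0384 CPM, and neither passed the filter on low counts. Of 16 receptor and signalling genes tested, 14 had a log2 fold change above 0 (background 49.6%) and none passed the test, with a median of 0.07. Of the inhibitor genes of the pathway, Socs3 and Socs1 had larger differences in numbers 3 and 4 than in numbers 1 and 2. Socs3 had 16.8 and 22.3 CPM in WT 3 and WT 4 and 35.2 and 34.8 in KO 3 and KO 4, and in numbers 1 and 2 its log2 ratios were -0.07 and -0.12. The test within numbers 3 and 4 gave 0.83 on the log2 scale (SE 0.15) at an edgeR adjusted p of 0.117. Socs1 had log2 ratios of 0.68 and 0.32 in numbers 3 and 4 and 0.19 and 0.24 in numbers 1 and 2. Other inhibitor genes of the list did not all do so. Within numbers 3 and 4 alone the log2 fold change was 0.08 for Ptpn6, -0.10 for Ptpn2 and 0.16 for Pias1. Within numbers 1 and 2 alone it was 0.14, -0.13 and -0.02. The receptor chains Ifnar1 and Ifnar2 had -0.03 (SE 0.13) and 0.02 (SE 0.17), and the kinase genes Jak1 and Tyk2 0.05 and 0.17. Irf9, the DNA-binding part of ISGF3, had 0.13, the related Stat3 0.12 and the interferon gamma receptor gene Ifngr1 0.14.

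Among 26 sensors, adaptors and interferon regulatory factors outside the 33, 19 had a log2 fold change above 0 (background 49.6%). None passed the test, and the median was 0.07. Irf3, the factor that acts before Irf7, had 0.03 (SE 0.20). The genes of smallest p were Traf3, an adaptor ligase (0.17), Slc15a4, an endosomal transporter needed for Toll-like receptor signalling (0.19), Irf1 (0.24) and Tmem173, the DNA sensing adaptor STING (0.18).

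The other interferon-stimulated genes resembled the 33. Of 66 tested, 58 had a log2 fold change above 0 (background 49.6%) and none passed the test, with a median of 0.17. Their medians by number were -0.04, 0.002, 0.41 and 0.25. Slfn1, a schlafen gene, had 7.06, 3.83, 4.74 and 7.25 CPM in WT 1 to 4 and 9.04, 6.16, 31.4 and 21.2 CPM in KO 1 to 4. KO 3 and KO 4 stood far above the other libraries, and its log2 fold change was 1.57 (SE 0.50). Ms4a4c, a membrane protein gene, had 1.08 (SE 0.53), the GTPase gene Iigp1 0.76 (SE 0.35) and Gbp9 0.38 (SE 0.21). Within numbers 3 and 4 alone Slfn1 (log2 fold change 2.12) and Ms4a4c (1.42) passed, both at an edgeR adjusted p of 0.0400 (background 0.0975% in either direction).

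**Figure D4:**
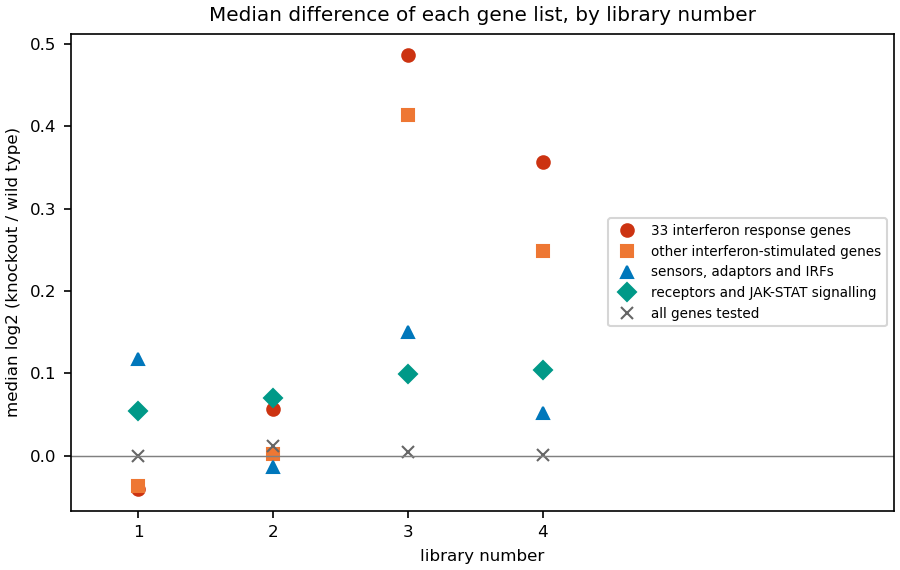
Median log2 ratio of knockout to wild type CPM (vertical) of each gene list in each library number (horizontal). The 33 genes (red circles) stand at -0.04 and 0.06 in numbers 1 and 2 and at 0.49 and 0.36 in numbers 3 and 4, next to the other interferon-stimulated genes, while the medians of the receptor genes and of all genes tested lie below both lists in numbers 3 and 4.

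ISGF3 and the IRF factors bind a promoter motif with paired GAAA blocks, so the promoters of the 33 were searched for it. RefSeq promoters on GRCm38.p6, from 250 bases before to 50 after the start site, were matched for 24 of the 33 genes. GAAANNGAAA, on either strand, was found for 17 of these 24 (70.8%), where 3.99% of all 27025 genes with a promoter entry had it. The longer GAAANNGAAAC was found for 12 of the 24 (50%), beside 0.944% of all genes. Stretches of 30 bases around the match nearest the upstream end are shown for the first 10 genes of the list that had one, because these sequences are what most of the genes have in common. Capitals mark the match, which reads TTTCNNTTTC where it lies on the strand opposite the gene. Each is written 5′ to 3′ on the gene's strand.
Isg15, chr4:156200877-156200906 (-): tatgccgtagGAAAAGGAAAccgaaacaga
Ifit1, chr19:34640775-34640804 (+): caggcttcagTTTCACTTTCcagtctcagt
Ifit3, chr19:34583363-34583392 (+): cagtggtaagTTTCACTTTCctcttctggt
Oas1a, chr5:120907526-120907555 (-): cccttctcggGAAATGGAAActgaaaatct
Oas3, chr5:120777715-120777744 (-): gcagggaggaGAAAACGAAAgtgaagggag
Rsad2, chr12:26456553-26456582 (-): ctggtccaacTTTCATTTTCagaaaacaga
Stat2, chr10:128270266-128270295 (+): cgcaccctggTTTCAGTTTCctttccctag
Ddx58, chr4:40239804-40239833 (-): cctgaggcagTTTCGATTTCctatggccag
Ifih1, chr2:62646206-62646235 (-): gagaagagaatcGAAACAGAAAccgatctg
Irgm1, chr11:48871431-48871460 (-): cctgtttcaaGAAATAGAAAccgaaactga

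Isg15 held 3 overlapping matches, at positions -78 to -57 from its start site, and Ifit1 a second match at -85 to -76. The Oas1a and Irgm1 matches also came as overlapping pairs. The Irf7, Oasl1, Oasl2, Ifi44, Cmpk2, Xaf1 and Ifit2 entries held none in this window, which says only that these letters are not there. A match describes the sequence and was not set against binding of any factor.

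AGO2 binding was read from PAR-CLIP, in which 4-thiouridine in the RNA is crosslinked to the protein and then read as C, so that T-to-C conversions mark contact. Overlapping reads were merged into groups in the deposited tables, with at least 5 reads in each. The question is which of the 33 genes AGO2 held at their 3′ UTR. A 3′ UTR group was listed for 15 of them in wild type (background 38.3% of genes tested) and for 13 in knockout (background 34.9%), with 12 in both. Bst2, Gbp2 and Ifit3 had one in wild type alone and Ifit2 in knockout alone. At least 1 group of any kind was listed for 53.6% of genes tested in wild type and for 55.1% in knockout. Of the 33, 10 had none in either library and 7 had groups outside the 3′ UTR alone. There was 1 library per genotype, so differences between genotypes have no replicate check.

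In wild type the 33 genes held 40 3′ UTR groups, of which 37 (92.5%, exact binomial 95% interval 79.6 to 98.4%) had a conversion, beside 86.9% of all 3′ UTR groups. In knockout they held 41, of which 31 (75.6%, 59.7 to 87.6%) had one, beside 81.6%. These intervals take groups as independent, though Rsad2 alone held 14 of the 40 (13 with a conversion) and 16 of the 41 (10 with a conversion). Of the 40 wild type groups 22 (55%) overlapped a knockout group by at least 1 base, where 40.6% of all 3′ UTR groups did. From the other side 21 of the 41 (51.2%) overlapped, where 52.1% of all did. By place, 62.5% of all groups of these genes in wild type and 53.9% in knockout lay in 3′ UTRs, and 31.2% and 30.3% in coding sequence. Of all groups, which include those between genes, 33.3% and 20.4% lay in 3′ UTRs and 16.2% and 11.3% in coding sequence.

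Oas2 and Rsad2 held most of the reads. Values in reads-per-million (RPM) of all reads in groups are given with exact Poisson 95% intervals, which cover counting error only. Oas2 had 1580 reads in its 3′ UTR in wild type, or 251.3 RPM (239 to 264), and 1929 in knockout, or 299 RPM (286 to 313). Rsad2 had 601 reads in 14 groups in wild type, or 95.6 RPM (88.1 to 104), and 906 reads in 16 groups in knockout, or 141 RPM (132 to 150). By reads Oas2 ranked 163 and Rsad2 481 among genes with a 3′ UTR group in wild type, and by its number of groups Rsad2 ranked 151. Oasl2 had 38.0 RPM (33.3 to 43.1) in wild type and 47.5 (42.3 to 53.1) in knockout, and the intervals overlapped.

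Of the 12 genes with a 3′ UTR group in both libraries, 5 had intervals that did not overlap between the genotypes (background 53.1% of genes tested with such groups). Over all 4215 such genes 2240 had intervals apart, knockout being the higher for 481 of these and wild type for the rest. Among the 12, knockout was the higher for 4 (background 11.4%) and wild type for 1. Higher in knockout were Oas2 by 1.19 times, Rsad2 by 1.47 times, Ifi44 by 1.95 times and Oas3 by 5.07 times, the last from 5 reads in wild type and 26 in knockout. Lower was Gbp3, with 137 reads, or 21.8 RPM (18.3 to 25.8), in wild type and 38 reads, or 5.90 RPM (4.17 to 8.09), in knockout. All of its 3′ UTR reads came from 1 group of 29 bases at the same place in both libraries. Scaled to the reads of 3′ UTR groups alone, 7 of the 12 had intervals apart (background 49.6%). Oasl2 and Stat2 were added on the side higher in knockout, which then held 6 of the 12 (background 18.1%). These counts are not divided by the mRNA level of the PAR-CLIP cultures, which was not measured. The 16 genes with a 3′ UTR group in either library had a median log2 fold change of 0.20 in mRNA, and the other 17 had 0.21.

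**Figure D5:**
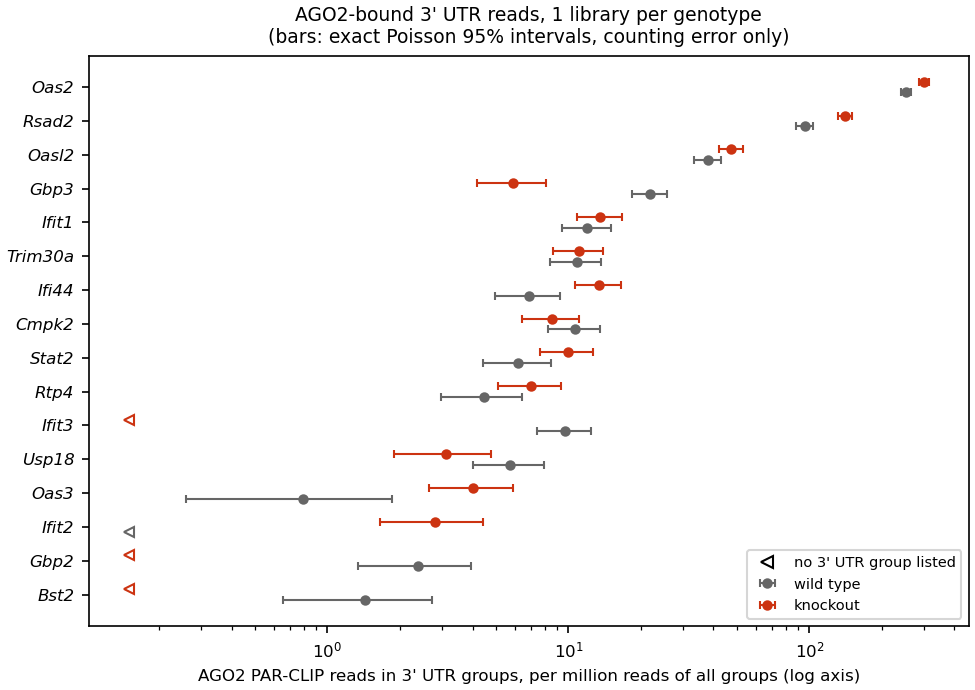
AGO2 PAR-CLIP reads in 3′ UTR groups, as RPM of the reads in all groups, (horizontal, log axis) in wild type (grey) and knockout (red) for the 16 genes with such a group. Bars are exact Poisson 95% intervals and open triangles mark a gene with none listed. Oas2 and Rsad2 stand highest, and Gbp3 is the gene whose knockout interval lies below its wild type interval.

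Groups were searched for matches to the seeds, bases 2 to 8, of the most abundant miRNAs in the small RNA libraries. A 7-base match lay opposite bases 2 to 8, or opposite bases 2 to 7 with an A after it. An 8-base match had both. Of the 40 wild type groups 11 (27.5%) held a 7- or 8-base match, where 18.3% of all 3′ UTR groups and 22.0% of groups at the lengths of these 40 did. In knockout it was 11 of 41 (26.8%), beside 18.6% and 19.9%. Most of the matches in each library lay in Rsad2, which alone held 14 of the 40 groups and 16 of the 41. The shares thus rest mostly on that gene. The miRNAs whose seeds were matched in the groups shown are these, from RefSeq, with the seed in capitals.
let-7c-5p: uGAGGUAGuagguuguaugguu
let-7a-5p: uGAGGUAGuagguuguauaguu
miR-27b-3p: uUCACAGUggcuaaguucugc
miR-103-3p: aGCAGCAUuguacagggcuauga
miR-29a-3p: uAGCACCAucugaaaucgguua
miR-125a-5p: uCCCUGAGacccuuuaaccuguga
miR-22-3p: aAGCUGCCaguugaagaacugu
miR-221-3p: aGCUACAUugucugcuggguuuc

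Of the total miRNA reads let-7c made up 9.59% and let-7a 5.54% on average, and the 2 share their seed. The share was 1.19% for miR-27b, 0.673% for miR-103, 0.601% for miR-29a, 0.432% for miR-125a, 0.378% for miR-22 and 0.298% for miR-221. The most abundant miRNA, miR-21a-5p, made up 47.1% and had no match in a 3′ UTR group of the 33 genes.

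The 10 matched groups of most reads that held a conversion came from 4 genes, and 7 of them from Rsad2. Up to 30 bases around each match are shown, as the wild type table gives the sequence, because there an AGO2 group and the seed match of an abundant miRNA coincide in an interferon response transcript. Capitals mark the match, and positions are on mm9. The Usp18 match and the 7-base miR-27 match of Rsad2 lie opposite bases 2 to 7 of the miRNA with an A after them.
Oas2, let-7, chr5:121181366-121181395 (-): gtaaacaatatCTACCTCtcttaatgtccc
Rsad2, miR-221, chr12:27128753-27128782 (-): cttgagtataaatataactATGTAGCccag
Rsad2, miR-29a, chr12:27128960-27128989 (-): ggggtttttttTGGTGCTtatattaatact
Cmpk2, miR-22, chr12:27164570-27164588 (+): taatgtGGCAGCTAattcc
Rsad2, miR-27, chr12:27127630-27127653 (-): taacatgatCTGTGAAttaaaatg
Rsad2, miR-22, chr12:27129445-27129474 (-): atataaaatgtGGCAGCTggcttggtataa
Usp18, miR-103, chr6:121220577-121220606 (+): cctctcctgtacccttgtcTGCTGCAtttc
Rsad2, miR-27, chr12:27129975-27130004 (-): attttACTGTGAAtcccacatttccttttt
Rsad2, miR-125a, chr12:27127711-27127731 (-): tctaatgCTCAGGGAtatatg
Rsad2, miR-103, chr12:27129716-27129741 (-): catggtcccagcctctgATGCTGCtg

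The Oas2 group with the let-7 match was by far the largest, with 1559 reads and 6 conversion locations in wild type and 1929 reads and 5 in knockout. It spans 68 bases in wild type and 60 in knockout. The miR-221 group of Rsad2 had 272 reads in wild type and 380 in knockout, and its miR-29a group 57 and 77. The miR-22 match of Cmpk2 lay in a wild type group of 32 reads, and the knockout group over it, of 33 reads and 41 bases, also covered a neighbouring wild type group of 10 reads. Usp18 had more in wild type, 36 against 12, and so did the 8-base miR-27 match of Rsad2, 34 against 11. At the 7-base miR-27 match shown for Rsad2 the order was turned, with 20 reads in wild type and 44 in knockout. A further miR-27 match of Rsad2, at 27128072 to 27128099, was in a knockout group of 21 reads without a conversion and in no wild type group. The miR-103 match of Rsad2 had 20 reads in wild type and no knockout group over it. The matched groups thus differed in both directions between the libraries.

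AU-rich and U-rich letters, which ELAVL1 is known to bind, were also counted in these groups. ATTTA was in 1 of the 40 wild type groups (2.50%), that of Oas2, where 7.48% of all 3′ UTR groups held it, and in 2 of 41 (4.88%) in knockout, beside 6.33%. TTTTT was in 9 of 40 (22.5%) in wild type, beside 10.96% of all, and in 5 of 41 (12.2%) in knockout, beside 9.83%. The wild type groups with TTTTT lay in Cmpk2, Gbp3, Ifi44, Rsad2 and Trim30a.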

How the data were processed

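Each mRNA library has, per the file headers, a deposited count and a deposited RPKM for every Ensembl gene. Small RNA libraries have deposited counts per mature miRNA, and PAR-CLIP libraries deposited counts of reads and conversions per group. The submitters' processing notes name CASAVA 1.8.2, Bowtie 0.12.7 and mm9. How genes were counted, with or without strand, and what was done with reads of several positions is not given in the sources used here, so close copies (Ifi203, Ifi204 and Ifi205, Oas1a, Gbp2 and Gbp3, Ifit3, Trim30a) are uncertain. Whether the PAR-CLIP tables count the first base as 0 or 1 was not settled. Sequences of groups are written in the sense of the transcript.

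Genotypes were tested on the deposited counts with the quasi-likelihood method of edgeR 4.0.16 under R 4.3.3. Low genes were dropped by filterByExpr, libraries were scaled by TMM, the design held genotype only, and p-values were adjusted by Benjamini-Hochberg over 14019 genes, with calls at 0.05. CPM values are scaled by TMM. The script was tested on simulated data. Alternatives were DESeq2 1.42.0, other size factors, no filter, a replicate block, each number set alone and each library left out. Deviations from the group mean correlated at 0.754, 0.797, 0.741 and 0.797 between wild type and knockout libraries numbered 1 to 4, all above 0.1. Pairs of unequal number correlated above 0.1 as well, at 0.339 and 0.240 within 1 and 2 and at 0.827 and 0.758 within 3 and 4. KO 3 correlated more with WT 4 than with WT 3. Within numbers 3 and 4 the check thus cannot tell a pair from the number set, and the block follows the labels. Seeds of the 30 most abundant miRNAs were searched, less miR-378a-3p, miR-30d-5p and miR-142-3p, which the RefSeq table used here lacks. The 33 genes, the lists and the tests were chosen with earlier results of these data known. Genes named in full were those higher or lower in all 4 pairs, the 5 highest and 3 lowest by RPKM, Irf7, Stat2, Isg15 and Usp18, and per list the 4 of smallest p. Of the pathway genes to be named, 1 is not reported here. Oasl1, Ifit1, Gbp2, Ifi44, Socs1, Socs3, Ptpn6, Ptpn2, Pias1 and the single marker genes were added after their values were seen. Tables were handled in Python 3.11.15 with pandas 2.3.3.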

Additional observations from a re-analysis of the deposited data

Results flagged for a closer look

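Library WT 2 had 20.45 CPM of Ifit1, far below the other wild type libraries at 63.4 to 67.1 CPM, and the gap made up 0.920 of the range of the group. Library KO 1 had 87.8 CPM of Cmpk2, above the other knockout libraries at 49.85 to 55.85 CPM, a gap of 0.842 of the range. Gaps this large in a group of 4 arise by chance in about 1 in 20 groups, and 2 of the 66 groups of these genes had one (Dixon's test at the 95% level).

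For 5 genes both knockout libraries of numbers 1 and 2 were below the wild type library of their number and both of numbers 3 and 4 were above it. The difference between the number sets, on the log2 scale, was 0.81 for Ifit1, 0.76 for Mx1, 0.89 for Ifi44, 0.86 for Gbp2 and 0.40 for Xaf1. None passed the interaction test (edgeR adjusted p = 0.9998 for each).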

How the results depend on the processing

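The genotype test called 0 of 14019 genes by edgeR (81 at an unadjusted p under 0.05), and 2 by DESeq2. With the number set as a covariate it called 1, and in numbers 3 and 4 alone 14. With the replicate block edgeR called 5 and DESeq2 83, and leaving out each number from the blocked edgeR fit gave 3 to 29 (4 without number 1, 29 without number 2, 7 without number 3 and 3 without number 4). Of the 33 genes the block changed 1 call, that of Ifi27l2a by DESeq2, so 1 was called in place of 0. The number of the 33 above 0 was 19 in numbers 1 and 2 alone. It was 24 to 32 when each library was left out, 24 being without WT 2. The median of the receptor genes was 0.0461 in numbers 1 and 2 alone, 0.0975 in numbers 3 and 4 alone and 0.0412 to 0.1305 with a library left out, and that of the other sensors 0.0262 to 0.1655. The interaction was positive for 18 genes without WT 1.

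Turns of direction were followed for the genes named in full by rule and Oasl1, and the values after a turn were small. Not all had started near 0, Oasl2 having a log2 fold change of 0.52 over 8 libraries. Among all 33 genes 14 lay below 0 in numbers 1 and 2 alone, down to -0.40. In numbers 1 and 2 alone Oasl2 had -0.0158, Xaf1 -0.1075, Mx2 -0.0152 and Tmem173 -0.1137. In numbers 3 and 4 alone Ifnar2 had -0.0148 and Irf3 -0.0074. With the replicate block and a number left out, Xaf1 had -0.0147 without number 3, and Ifnar1 0.0281, Ifnar2 -0.0067 and Irf3 -0.0290 without number 1. With 1 library left out Oas3 ranged from -0.0570 to 0.5412, Bst2 from -0.0926 to 0.4309, Mx2 from -0.0073 to 0.2872, Ifnar1 from -0.0720 to 0.0254, Ifnar2 from -0.0878 to 0.0994, Irf3 from -0.0831 to 0.1858 and Jak1 from -0.0289 to 0.1286. The cause was not tested. Slfn1 and Ms4a4c passed in numbers 3 and 4 alone. Ordered by CPM, 3 of the 5 highest genes were the same. With 8-base matches alone the share of groups was 7.5% in wild type and 9.756% in knockout. Of the other alternative values, 598 for single genes and 178 for summaries kept their direction and their side of the threshold or stayed within the spread. For the median of the 33 that spread was 0.25, more than the median of 0.21. Its fall to 0.01 in numbers 1 and 2 alone and rise to 0.41 in numbers 3 and 4 alone thus counted as within it. Single genes started far from the threshold (edgeR adjusted p of 0.9999 or more), so keeping their side of it says little.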
